A study of Sus scrofa with 2 samples.

Results

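The miRNAs miR-374a, miR-374b, miR-374c, miR-421 and miR-545 were followed through the 2 small RNA libraries of pig testis. Their tags were found by the deposited name, with the species prefix and copy number dropped, and reads were summed for each name and arm. The names miR-374, miR-374a, miR-374a*, miR-374b*, miR-421, miR-545 and miR-545* occurred, which made 7 of the 1383 names and arms with reads, and all 7 had reads in both libraries. A star in a name stands for the arm of the hairpin that was less abundant when the miRNA was first described. The name miR-374 came from the rat entry, whose sequence is the one called miR-374b in human, and no tag carried the name miR-374c or the leading arm of miR-374b. The testes of 3 Junmu-1 boars, a white breed of pig from China, were pooled at 30 days of age, when the animals were sexually immature, and those of 3 at 180 days, when they were mature. Each age gave 1 library from total RNA of whole testis, so there was no spread between replicates, and differences below are between 2 libraries. The labels name no treatment or genetic change at either age.

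These miRNAs come from paired hairpins. In human, miR-545 and miR-374a are neighbours, as are miR-421 and miR-374b, and both pairs lie within FTX, a gene for a long non-coding RNA near XIST on the X chromosome. Most X-linked genes are silenced in spermatocytes during meiosis, although a number of X-linked miRNAs are known to be read in these cells. In the RefSeq annotation of the pig genome (Sscrofa11.1), the genes MIR421, MIR374B, MIR545 and MIR374A follow each other in this order on chromosome X, and all of them lie within 1 gene for a long non-coding RNA. The build behind the deposited tags is not given in the sources used here, and this annotation was used only for the order of the genes. A miRNA pairs with its targets mainly through its seed, bases 2 to 8 from the 5′ end, so the sequences are shown with the seed in capitals.

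The leading tag of each name, the one with the highest share of that name's reads averaged over the libraries, is given first, because it shows which of these miRNAs share a seed. The letters are those of the deposited tags, 5′ to 3′, with T for U.
miR-374a: tTATAATAcaacctgataagtg
miR-374: aTATAATAcaacctgctaagtg
miR-374a*: cTTATCAGgttgtattgtaatt
miR-374b*: cTTATCAGgttgtattatcatt
miR-421: aTCAACAGacattaattgggcgc
miR-545: aTCAACAAacatttattgtgtgc
miR-545*: tCAGTAAAtgtttgttggatga

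The 7 tags held 5 different seeds. miR-374a and miR-374 shared their seed and differed by A1T and C16A, where the base of miR-374 comes first, then the position from the 5′ end, then the base of miR-374a. The star arms miR-374a* and miR-374b* also shared a seed and were the same over their first 16 bases, although the miR-374b* tag rests on 2 of 7 reads at 30 days and 2 of 2 at 180 days. At 30 days 3 miR-374b* reads had this start and 3 began 1 base later. The miR-545* tag likewise rests on 2 of 19 and 2 of 10 reads. miR-421 and miR-545 had the same first 7 bases and differed by 1 base of the seed, G8A from miR-421 to miR-545. No other listed entry had the whole seed of any of these tags. The rat entry of miR-505, an X-linked miRNA in human, shared bases 2 to 7 with miR-421 and miR-545. The name miR-505, summed over the entries of all species, had 49 reads at 30 days and 8 at 180 days.

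Several pig tags departed from the human entry of the same name, some of them within the seed. The leading miR-545 tag equalled the cow entry over the whole length of that entry. Against the human entry it began 1 base earlier and had G4A, counted from the human 5′ end, so the seeds of the human entry and of the pig tag differ.
human miR-545 entry: tCAGCAAAcatttattgtgtgc
human miR-374b* entry: cTTAGCAGgttgtattatcatt
Of the 32 reads named miR-545 at 30 days, 31 were listed under the cow entry, and so were 16 of 16 at 180 days. The leading miR-374b* tag had G5T against the human entry, within the seed. The leading miR-374a* tag had A9G, just past the seed. Of its 249 reads at 30 days 2 were free of mismatches to the human entry, and of 70 at 180 days 0 were. The leading tags of miR-374a and miR-374 matched their entries with 0 substitutions.

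The libraries differed in depth. The 30-day list held 7525725 miRNA-matched reads and the 180-day list 852209, so that 3 reads, the limit that a count of 0 allows, came to 0.399 and 3.52 RPM (reads scaled to a fixed total of miRNA-matched reads). The gonadal miR-202 was abundant at both ages, at 68481 and 110872 RPM with both arms, while the germ cell miRNAs miR-34b, miR-34c, miR-449a and miR-449b had a sum of 11.4 RPM in the 30-day library and 35278 RPM in the 180-day library. Sums for other cell types were also higher in the 180-day library: 1742 and 3933 RPM for the red blood cell miRNAs miR-451, miR-144 and miR-486, 1432 and 6552 RPM for striated muscle, 6581 and 17994 RPM for smooth muscle, 381 and 629 RPM for endothelium and 73.7 and 96.2 RPM for epithelium. Every name of these lists had reads in both libraries except 1 of the 5 epithelial names, miR-429, which had none at 180 days. The part of these cell types in the results below was not tested. In whole tissue, more cells of a type and more RNA per cell cannot be told apart.

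Together the members took 9165 of the miRNA-matched reads at 30 days and 1668 at 180 days. This was 0.122% (exact binomial 95% interval 0.119 to 0.124%) and 0.196% (0.186 to 0.205%), a ratio of 1.61 (1.52 to 1.69). Each ratio divides the 180-day value by the 30-day value. Its exact 95% interval covers counting error only, since each age has 1 library. It counts each read as independent, which PCR reads without molecular identifiers are not, so it can be too narrow. A miRNA is called higher or lower when its ratio is at least 2 or at most 0.5, the interval excludes 1, and it had 20 or more reads over both libraries. The members' sum was not called.

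miR-374a, which in human cancer cells is linked to WNT signalling, was the most abundant member. It had 7019 reads at 30 days (933 RPM) and 1208 reads at 180 days (1417 RPM), and the ratio was 1.52 (1.43 to 1.62). Among the 1383 names and arms it ranked 68th by reads at 30 days and 62nd at 180 days. It was higher in the 180-day library beyond counting error but under the 2-fold rule. miR-374, the miR-374b sequence, had 1673 reads at 30 days (222 RPM) and 307 reads at 180 days (360.2 RPM), with a ratio of 1.62 (1.43 to 1.83). As a share of the reads of miR-374a and miR-374 together, it took 19.2% (18.4 to 20.1%) at 30 days and 20.3% (18.3 to 22.4%) at 180 days. The balance between these same-seed miRNAs therefore moved by less than the counting error, and the ratio of miR-374 relative to that of miR-374a was 1.07 (0.927 to 1.22).

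miR-421, known in human cells as a repressor of the DNA damage kinase ATM, was called higher. It had 166 reads at 30 days (22.1 RPM) and 55 reads at 180 days (64.5 RPM), and the ratio was 2.93 (2.12 to 3.99). One of the reads at 30 days was the rat entry of that name, whose sequence belongs to the opposite arm, and without it the ratio was 2.94. miR-545, studied mainly in tumour cells together with FTX, was also called higher on few reads. It had 32 reads at 30 days (4.25 RPM) and 16 reads at 180 days (18.8 RPM), and the ratio was 4.42 (2.26 to 8.29).

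The star arms had fewer reads than their partners in both libraries, though for miR-545 the difference was within counting error. miR-374a* had 249 reads at 30 days (33.1 RPM) and 70 reads at 180 days (82.1 RPM), with a ratio of 2.48 (1.88 to 3.25), and was called higher. miR-545* had 19 reads at 30 days (2.52 RPM) and 10 reads at 180 days (11.7 RPM), with a ratio of 4.65 (1.93 to 10.5), and was called higher. This call was lost with tags of 2 or more reads (2.76, 0.655 to 8.92, on 13 and 4 reads), with tags free of mismatches (4.63, 0.749 to 21.7) and with tags free of mismatched and unmatched bases (4.72, 0.0800 to 90.7). miR-374b* had 7 reads at 30 days and 2 at 180 days, under the minimum of 20 reads, and its ratio of 2.52 had an interval of 0.256 to 13.3. As a share of the reads of both arms, miR-374a* took 3.43% (3.02 to 3.87%) at 30 days and 5.48% (4.29 to 6.87%) at 180 days, intervals that do not overlap. For miR-545 the star arm took 37.3% (24.1 to 51.9%) and 38.5% (20.2 to 59.4%), which at this depth shows no difference and allows a large one. The 2 arms of miR-545 were thus nearer to each other in reads than those of miR-374a.

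**Figure D1:**
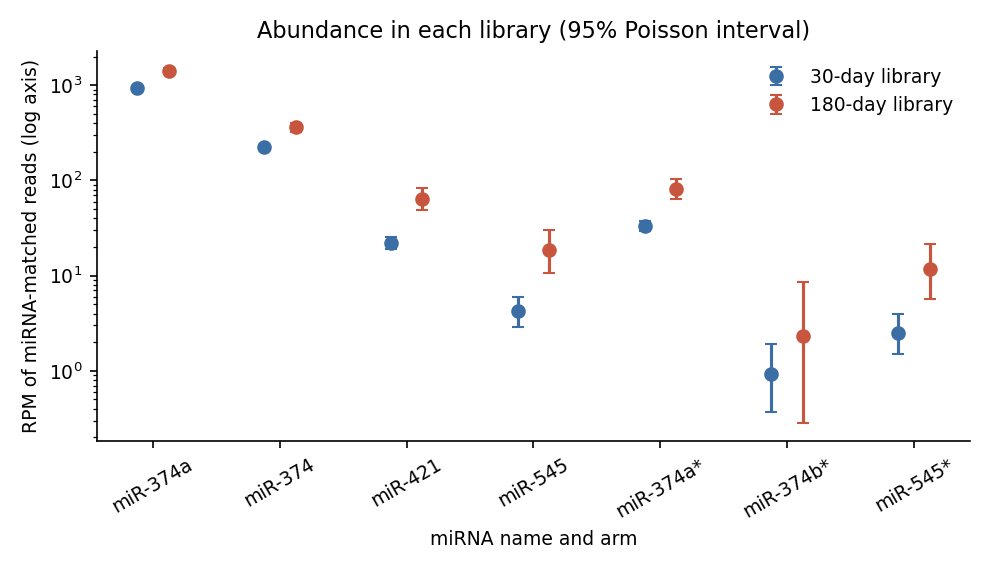
Points give the RPM of each name and arm in the 30-day (blue) and 180-day (red) library on a log axis, with exact Poisson 95% intervals. miR-374a and miR-374 lie far above the other members in both libraries, and the gap between the libraries is wider for miR-421, miR-545, miR-374a* and miR-545* than for miR-374a.

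Of the 6 members with 20 or more reads, 4 were called higher and 0 lower, all of the 4 being the less abundant ones. Over the 469 names and arms with that many reads, 29.4% were called higher and 12.2% lower. These shares were 22.6% and 19.2% with TMM scaling, 15.8% and 34.3% with median-of-ratios scaling and 5.76% and 84.4% per read of the whole library at inferred lowest totals, scalings described with the members' values further on. Rare miRNAs were called higher more often over the whole list: 43.0% of the 142 with 20 or more but under 100 reads, 27.0% of the 174 with 100 or more but under 1000 and 19.6% of the 153 with 1000 or more. The median log2 ratio was 1.43 for the 6 members and 0.22 for all 469. miR-545 and miR-545* fall in the lowest of these read classes, miR-421 and miR-374a* in the middle one, and the uncalled miR-374a and miR-374 in the highest. The part of read number in the members' ratios was not tested.

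The members did not all move alike, and this does not depend on how the libraries are scaled, since the scaling cancels when members are set against each other. Relative to the ratio of miR-374a, that of miR-421 was 1.93 times as large (1.38 to 2.64), that of miR-545 2.91 times (1.48 to 5.47), that of miR-545* 3.06 times (1.27 to 6.93) and that of miR-374a* 1.63 times (1.23 to 2.15). The difference also held between the members encoded side by side. miR-421 was 1.81 times as large in ratio as miR-374, its partner next to it in the genome (1.27 to 2.53), and miR-545 differed from its partner miR-374a by the 2.91 times given above. With tags free of mismatched and unmatched bases, the ratios were 1.18 (0.0266 to 8.81) for miR-545 and 1.65 for miR-374a. This filter left 8 and 1 reads of miR-545, which was then no longer the higher one. It removes the leading miR-545 tag, which is longer than the cow entry. With tags free of mismatches but with free ends, miR-545 had a ratio of 4.32 (2.12 to 8.40) on 30 and 14 reads. That of miR-374a was then 1.59. Between miR-545 and miR-421 the factor was 1.51 with an interval of 0.715 to 3.08, so the reads do not tell these apart.

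The direction of each ratio against the whole library did depend on the scaling. With TMM scaling (edgeR), which shifted every log2 ratio by -0.32, miR-421 had a ratio of 2.34, miR-545 of 3.53 and miR-545* of 3.71, while miR-374a* came to 1.98 and lost its call. With median-of-ratios scaling (DESeq2), a shift of -0.89, miR-374a and miR-374 fell below 1, at 0.817 and 0.872, miR-421 was at 1.57, and only miR-545 and miR-545* were still called, at 2.38 and 2.50. This scaling was computed over all names and arms with reads in both libraries, rare ones included, whereas TMM used those with 20 or more reads. Over the 469 with 20 or more reads the median log2 ratio was only 0.22. Median-of-ratios scaling with that minimum was not run. If the tag numbers are ranks over all tags of a library, an inference from counts that never rise with the number, the 30-day library held at least 12711254 reads and the 180-day library at least 12035098. Neither total has an upper limit, so a ratio taken with both is no bound. At these lowest totals the shift was -3.06 and every member was below 1: miR-374a at 0.182, miR-374 at 0.194, miR-374a* at 0.297, miR-374b* at 0.302, miR-421 at 0.350, miR-545 at 0.528 and miR-545* at 0.556. The intervals of miR-374b* (0.0306 to 1.58) and miR-545* (0.231 to 1.26) included 1. The ratios above thus describe shares of the miRNA pool.

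**Figure D2:**
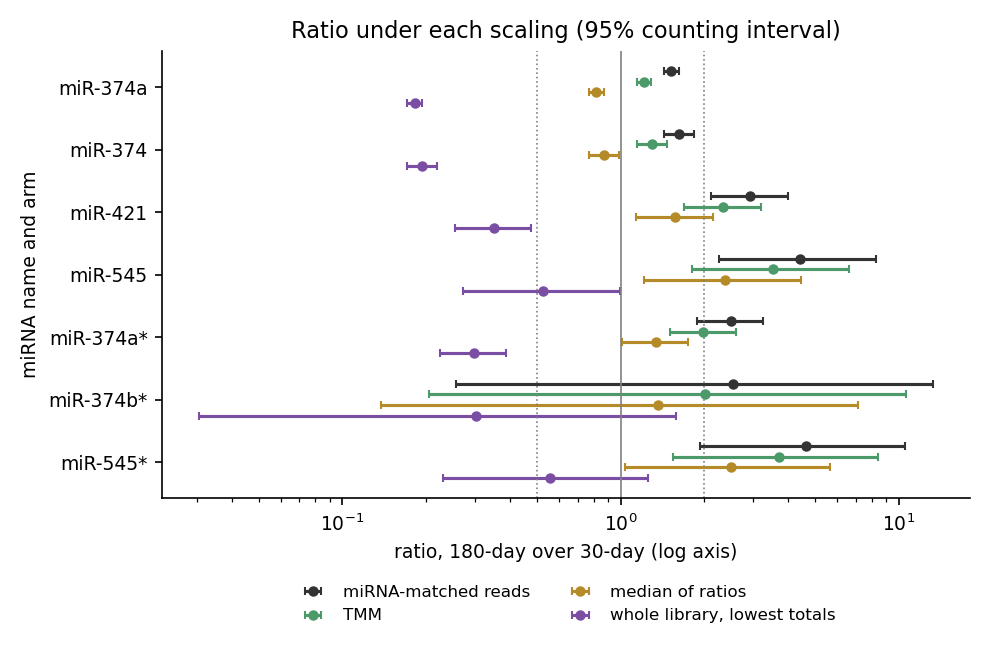
Points give each name and arm's ratio, 180-day over 30-day, on a log axis, with exact counting 95% intervals, under 4 scalings. Dotted lines mark ratios of 0.5 and 2 and the solid line marks 1; scaling moves all members together, so miR-374a is the lowest point and miR-545* the highest under each of them.

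The libraries also differed at the 3′ ends of miR-374a and miR-374. Among the reads that began with the first 19 bases of the leading tag, the 21-nucleotide form of miR-374a, which ends 1 base short of the leading tag, took 35.7% (34.5 to 36.8%) at 30 days and 44.1% (41.2 to 47.1%) at 180 days. The 22-nucleotide form took 46.7% (45.5 to 48.0%) and 39.9% (37.0 to 42.8%). The 21-nucleotide form had 2326 reads against 3049 of the longer one at 30 days, and 493 against 446 at 180 days, where the intervals of the 2 forms overlap. In miR-374 the 21-nucleotide form took 12.04% (10.5 to 13.8%) and 22.97% (18.2 to 28.3%), and the 22-nucleotide form 73.7% (71.4 to 75.9%) and 57.2% (51.3 to 63.1%). In each case the intervals of the 2 libraries do not overlap.

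Counted by form, the 22-nucleotide tags of both miRNAs had nearly the same ratio, 1.29 (1.17 to 1.43) for miR-374a and 1.27 (1.07 to 1.499) for miR-374. The 21-nucleotide tags had ratios of 1.87 (1.69 to 2.06) and 3.12 (2.31 to 4.16). Tags 1 base longer than the leading one took 10.3% (9.55 to 11.04%) and 9.39% (7.75 to 11.3%) of the reads for miR-374a, and 11.5% (9.96 to 13.2%) and 16.3% (12.2 to 21.1%) for miR-374, with intervals that overlap in both miRNAs. By form, the tags with an added A had a ratio of 1.35 (1.05 to 1.71) for miR-374a and 2.58 (1.63 to 3.96) for miR-374. In miR-374 this lay above the ratio of the 22-nucleotide tags and overlapped that of the 21-nucleotide tags. The added base was mostly A in miR-374a, in 511 of 670 such reads at 30 days (76.3%) and 78 of 105 at 180 days (74.3%), and less so in miR-374, in 96 of 176 (54.5%) and 28 of 46 (60.9%). Nearly all other added bases were T, in 157 and 25 reads of miR-374a and in 79 and 17 of miR-374. Whether an added base is encoded in the pig hairpin was not analysed here.

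**Figure D3:**
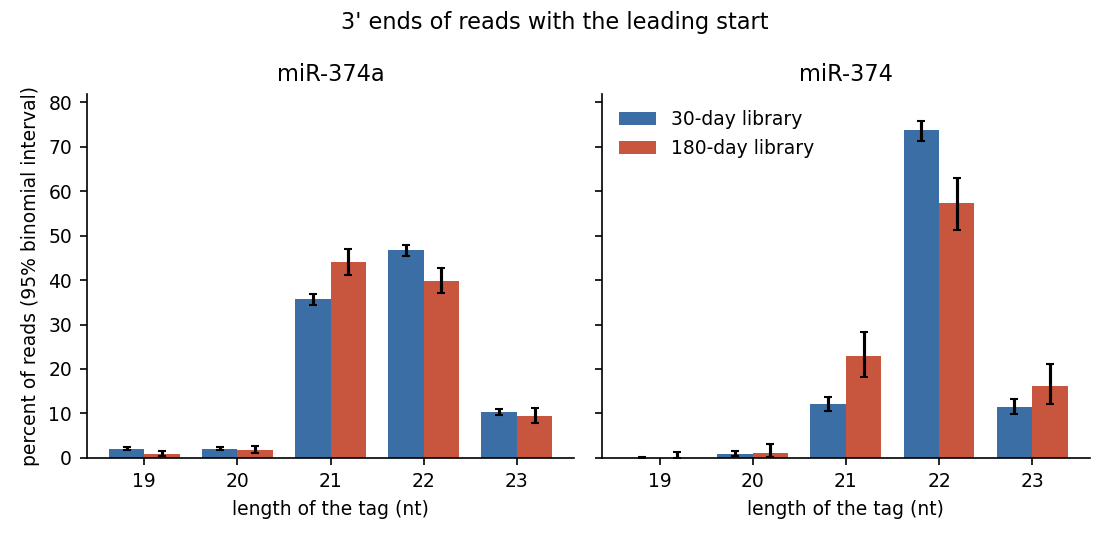
Bars give the share of reads by tag length in the 30-day (blue) and 180-day (red) library for miR-374a (left) and miR-374 (right), among reads with the leading first 19 bases, with exact binomial 95% intervals. In both miRNAs the 21-nucleotide bar is higher and the 22-nucleotide bar lower in the 180-day library.

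The same count was made over the whole miRNA pool, in which tags of 21 nucleotides took 23.97% of the reads at 30 days and 25.6% at 180 days, and tags of 22 nucleotides 49.7% and 44.7%. Over the 163 names and arms with 100 or more reads in each library, the share of reads that were 3′-shortened forms of the leading tag changed by a median of -0.75 percentage points, and it rose in 47. In some of the 163, such as miR-16, miR-17 and miR-140, this share was 0 in both libraries. It rose by 10.1 points for miR-374 (12.01 to 22.15% of all its reads) and by 6.34 points for miR-374a (37.0 to 43.4%). Only 1 of the 163, miR-25*, had a larger rise than miR-374, and 4 had a larger rise than miR-374a: miR-25*, miR-374 itself, miR-222 and miR-30e*. This comparison was chosen after the values of both members were seen, and it is a description with no test. The mean tag length changed less, from 21.62 to 21.59 nucleotides for miR-374a and from 21.90 to 21.89 for miR-374, against 21.81 and 21.89 over all miRNA-matched reads.

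**Figure D4:**
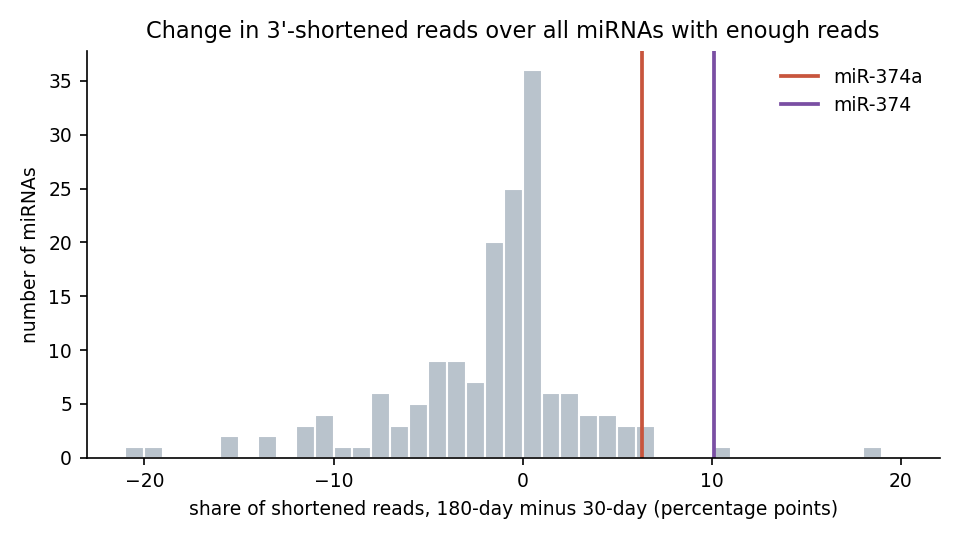
The histogram shows, for the 163 names and arms with 100 or more reads in each library, the share of 3′-shortened reads in the 180-day library minus that in the 30-day library, in percentage points. The lines mark miR-374a at 6.34 and miR-374 at 10.1 points, in the upper tail of the distribution, whose median is -0.75.

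The 5′ ends set the seed. The leading start was carried by 97.3% (96.9 to 97.7%) of miR-374a reads at 30 days and 96.6% (95.4 to 97.6%) at 180 days, and by 96.9% (95.9 to 97.7%) and 97.4% (94.9 to 98.9%) of miR-374 reads. For miR-421 these were 90.3% (84.7 to 94.4%) and 90.9% (80.0 to 97.0%), and for miR-374a* 86.7% (81.9 to 90.7%) and 95.7% (88.0 to 99.1%). The most frequent shift differed between the same-seed miRNAs at 30 days. In miR-374a it was a start 1 base later, in 124 reads (1.77%, 1.47 to 2.10%), against 28 reads for 2 bases later. In miR-374 it was a start 2 bases later, in 38 reads (2.27%, 1.61 to 3.10%), against 10 reads for 1 base later. At 180 days 5 of 307 miR-374 reads (1.63%, 0.531 to 3.76%) had the start 2 bases later. A start 1 base earlier was rarer in miR-374a at 30 days (26 reads, 0.370%, 0.242 to 0.542%) than at 180 days (18 reads, 1.49%, 0.885 to 2.34%). For miR-421, 13 of 165 reads at 30 days (7.88%, 4.26 to 13.1%) began 3 bases later, and 0 of 55 did at 180 days (interval 0 to 6.49%). With tags of 2 or more reads the leading start took 95.7% (90.8 to 98.4%) of miR-421 reads at 30 days. Part of these shifted reads were therefore tags read a single time.

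The members were set against other miRNAs whose genes lie on the human X chromosome. Of 52 such names, none of them a member, 45 names and arms had 20 or more reads. Of these 45, 10 were called higher and 5 lower, beside 29.4% and 12.2% of all miRNAs. Their median log2 ratio was 0.22, as over all miRNAs. The most read of them were miR-509-5p with a ratio of 2.41 (2.36 to 2.46), miR-222 at 0.281 (0.264 to 0.299), miR-221 at 0.438 (0.412 to 0.465) and miR-503 at 0.600 (0.554 to 0.649). Among the names called higher, miR-509-5p, miR-506, miR-508, miR-514, miR-507, miR-510 and miR-513a belong to a testis-expressed cluster. The others called higher were miR-362-3p, miR-223 and miR-20b. Above the members' range of ratios, 1.52 to 4.65, lay miR-506 at 6.22 (5.96 to 6.50) and miR-514 at 5.09 (4.38 to 5.92). All of these but miR-509-5p were named here after their values were seen. The 3 miRNAs with 1000 or more reads whose log2 ratio was nearest to that of miR-374a, out of 151, were miR-126, an endothelial miRNA, at 1.53 (1.28 to 1.82), miR-1810 at 1.497 (1.27 to 1.76) and miR-15b at 1.48 (1.38 to 1.59). This likeness is over 2 libraries and rests on the ratio alone.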

How the data were processed

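Small RNA from pooled testes of 3 boars at each age was size-selected on a gel (18 to 30 nucleotides), received adapters, went through 15 cycles of PCR and was read on a Solexa sequencer, per the labels' protocols. The authors deposited, for each library, distinct tags with raw read counts, the tag sequence and 1 matched miRNA entry of any species; aligner, miRBase release and build: not given in the sources used here. The deposited alignment score, tag and entry lengths and mismatches (up to 2) were not normalized; the score was used only as the model for splitting tags between entries.

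Reads were summed by deposited name and arm, and RPM were taken over all miRNA-matched reads. Ratios have exact conditional (Clopper-Pearson) 95% intervals; with 1 library per age there is no test. Code for ratios and calls was tested on simulated counts. Shifts of 5′ and 3′ ends were placed without gaps on the leading tag, whose share, averaged over the libraries, was highest. Every member with a read was named, with the 4 most read X-linked miRNAs, the 3 nearest in ratio and entries sharing a seed; as no RefSeq miRNA table was used here, seeds came from the deposited entries. The members and lists were chosen with earlier results of these data known. The alternatives were 3 other scalings, tags without mismatch or unmatched base, tags of 2 or more reads, split tags, summed arms and other read minimums. Tools were Python 3.11.15, scipy 1.17.1, edgeR 4.0.16 and DESeq2 1.42.0.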

Additional observations from a re-analysis of the deposited data

How the results depend on the processing

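With 1 library per age no replicate could be left out. No paired analysis was possible because each age has 1 pooled library. The whole-library values rest on lowest totals inferred from the tag numbers, and the median-of-ratios values on factors computed without a minimum of reads. The summed ratio of the members went from 1.61 to 1.28 with TMM, 0.864 with median-of-ratios and 0.192 per read of the whole library, and that of the miR-374 names from 1.57 to 1.25, 0.842 and 0.187. miR-421 went to 1.57 with median-of-ratios and turned to 0.350 per read of the whole library. Both arms of miR-545 summed, at 4.50, went to 2.42 and 0.538, and to 1.89 on 10 and 2 reads when tags had no mismatch or unmatched base. With mismatch-free tags with free ends they were at 4.37 (2.30 to 7.98) on 36 and 17 reads. Per read of the whole library miR-374a*, miR-545 and miR-545* turned to 0.297, 0.528 and 0.556, the last with an interval that includes 1. The count of members called higher, 4, became 2 of the 4 tested with a minimum of 100 reads. At that minimum 23.5% of 327 miRNAs were called higher. The members' count was 2 with median-of-ratios, 0 per read of the whole library and 1 with tags free of mismatch and unmatched bases. That last filter left 3 members with enough reads and gave miR-374a* none. The count was 3 with TMM, without miR-374a*, and 3 of 5 with tags of 2 or more reads, without miR-545*. The count called lower, 0, became 4 per read of the whole library. Among all miRNAs 15.8% were then called higher with median-of-ratios and 5.76% per read of the whole library, and 84.4% lower in the latter. Scalings applied to all miRNAs, the omission of the rat miR-421 entry and mismatch-free tags with free ends were added after seeing the data. Splitting tags over equal best matches touched 21 and 1 member reads.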

Other observations

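Single-base changes inside the tags were listed for miR-374a over the first 17 bases. Of 51 possible changes, 38 were seen at 30 days, with a median of 2 reads over the 51. The change A6G, within the seed, led with 29 of 6782 reads (0.428%, exact binomial 95% interval 0.287 to 0.614%) and was also the most read at 180 days, with 7 of 1156 (0.606%, 0.244 to 1.24%). C13T followed at 30 days with 23 reads (0.339%, 0.215 to 0.508%). The letters are the base of the leading tag, its position from the 5′ end and the base read.

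At position 14 of miR-545*, counted from the 5′ end of the leading tag, both A and G were read in each library. At 30 days 8 reads had A, 10 had G and 1 had T, and at 180 days 6 had A and 4 had G. The cow entry is A at this position and the leading tag G, written A14G. The RNA of 3 boars was pooled in each library, so reads could not be assigned to an animal.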
